A study of Homo sapiens with 18 samples.

Results

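The genes described are TKTL1, DCAF4L1, PRAC1 and HDC, which are known for expression in a few tissues such as testis, prostate, colon or mast cells, and whose levels were higher in U937 cells given decitabine. They were chosen by symbol, for that rise, and are 4 of the 14884 genes measured. Each was represented by 1 probe set: 17108264 for TKTL1 (Entrez gene 8277, NM_012253, chromosome X), 16966389 for DCAF4L1 (285429, NM_001029955, chromosome 4), 16846301 for PRAC1 (84366, NM_032391, chromosome 17) and 16809075 for HDC (3067, NM_002112, chromosome 15). U937 is an established human cell line of monocytic character derived from a histiocytic lymphoma. Total RNA was measured on 18 Affymetrix arrays, 3 in each of 6 groups: decitabine (5-aza-2'-deoxycytidine), decitabine plus panobinostat, decitabine plus valproic acid, panobinostat, valproic acid, and untreated control. Decitabine was given in 3 pulses of 24 h each, and panobinostat or valproic acid was present for 24 h, in the combinations together with the final pulse. The labels attach 50 to decitabine, 8 to panobinostat and 1 to valproic acid with no unit. Whether the doses of the inhibitors were matched cannot be told from them, so values for the inhibitors stand side by side. The labels do not state whether replicates are separate cultures, so p-values measure only the spread between these arrays.

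Decitabine is a cytidine analogue that is built into DNA during replication and traps DNA methyltransferases, so that methylation at CpG sites is lost as cells divide. Panobinostat, a hydroxamate, and valproic acid, a short-chain fatty acid, inhibit histone deacetylases, the enzymes that remove acetyl groups from histone tails. Genes restricted to germ cells or to a single tissue are often kept silent elsewhere by methylated promoters, and some are transcribed when that methylation is removed. Neither DNA methylation nor histone acetylation was measured here.

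The sequences before the start sites are shown because they let the CpG content of the 3 promoters be seen; whether their CpG sites are methylated in U937 was not measured. RefSeq (GRCh38.p14) promoters were found for 3 of the 4 genes, TKTL1, PRAC1 and HDC. The 250 bases before the start are printed 5' to 3' on the gene's strand, with each CpG in capitals.
TKTL1, first start, chrX:154295545-154295794, plus strand: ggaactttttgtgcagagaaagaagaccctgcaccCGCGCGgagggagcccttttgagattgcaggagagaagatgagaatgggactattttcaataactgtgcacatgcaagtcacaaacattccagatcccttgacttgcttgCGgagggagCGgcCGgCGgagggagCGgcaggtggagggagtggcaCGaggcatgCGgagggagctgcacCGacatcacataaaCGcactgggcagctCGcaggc
PRAC1, chr17:48722519-48722768, minus strand: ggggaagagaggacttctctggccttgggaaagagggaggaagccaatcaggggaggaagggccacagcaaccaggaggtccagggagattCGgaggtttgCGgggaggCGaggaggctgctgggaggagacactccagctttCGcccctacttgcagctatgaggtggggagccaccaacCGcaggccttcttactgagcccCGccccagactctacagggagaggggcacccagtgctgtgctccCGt
HDC, chr15:50265727-50265976, minus strand: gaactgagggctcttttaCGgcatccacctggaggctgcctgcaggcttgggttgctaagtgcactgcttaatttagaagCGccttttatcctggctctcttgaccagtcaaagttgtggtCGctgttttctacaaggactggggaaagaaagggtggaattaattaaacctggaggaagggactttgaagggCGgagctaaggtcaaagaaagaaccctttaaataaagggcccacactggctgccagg
These stretches held 13 CpG for TKTL1, 7 for PRAC1 and 4 for HDC, and the 250 bases before a second TKTL1 start (chrX:154304920-154305169, plus strand) held 6.

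Over the full 300-base window, which adds 50 bases after the start, the first TKTL1 start had 18 CpG, the second had 8, PRAC1 had 9 and HDC had 7. The median over all 35116 promoters of that length was 14, with quartiles of 4 and 28. More CpG than in the member's window was found in 42.9% of promoters for the first TKTL1 start, in 58.4% for the second, in 56.4% for PRAC1 and in 60.7% for HDC. The observed number of CpG over the number that base composition predicts was 0.74 for the first TKTL1 start, 0.40 for the second, 0.31 for PRAC1 and 0.35 for HDC, against a median of 0.58. Of 4 short motifs searched on both strands, GGGCGG was in the PRAC1 and HDC windows and in 45.0% of all promoters, and CCAAT was in the PRAC1 window and in 34.6%. TATAAA, found in 11.5% of promoters, and GATAAG, found in 6.36%, were in none of the 4 windows. A CpG inside GGGCGG is counted among the CpG as well, and a match is a description of the letters only.

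The deposited log2 values of all probe sets ran from 2.29 to 14.57, with array medians of 3.81 to 3.87. The precision is limited by the number of arrays. Across genes, pairs of arrays within a group had correlations of 0.985 to 0.992, and pairs from unlike groups had 0.961 to 0.990. Replicate 1 of decitabine plus valproic acid stood apart from its group: on the first principal component, which held 34.2% of the variance, it lay at 12.04 and the other two arrays of the group at 23.9 and 30.6. Values without it are given where a result for TKTL1 or HDC moves with it. Of the 13 myeloid genes listed as markers of U937, 9 were on named probe sets, and MPO (log2 level 12.28 in control) and LYZ (7.33), which encode myeloperoxidase and lysozyme, were among them. The table carries no detection p, so whether a control level of a gene is above background cannot be said. The control means of the 4 genes, from 3.31 for HDC to 4.07 for DCAF4L1, lay near the array medians or below them, so changes from control, fold values and sums of changes below are those of the measured signal, and a true change could be larger.

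**Figure D1:**
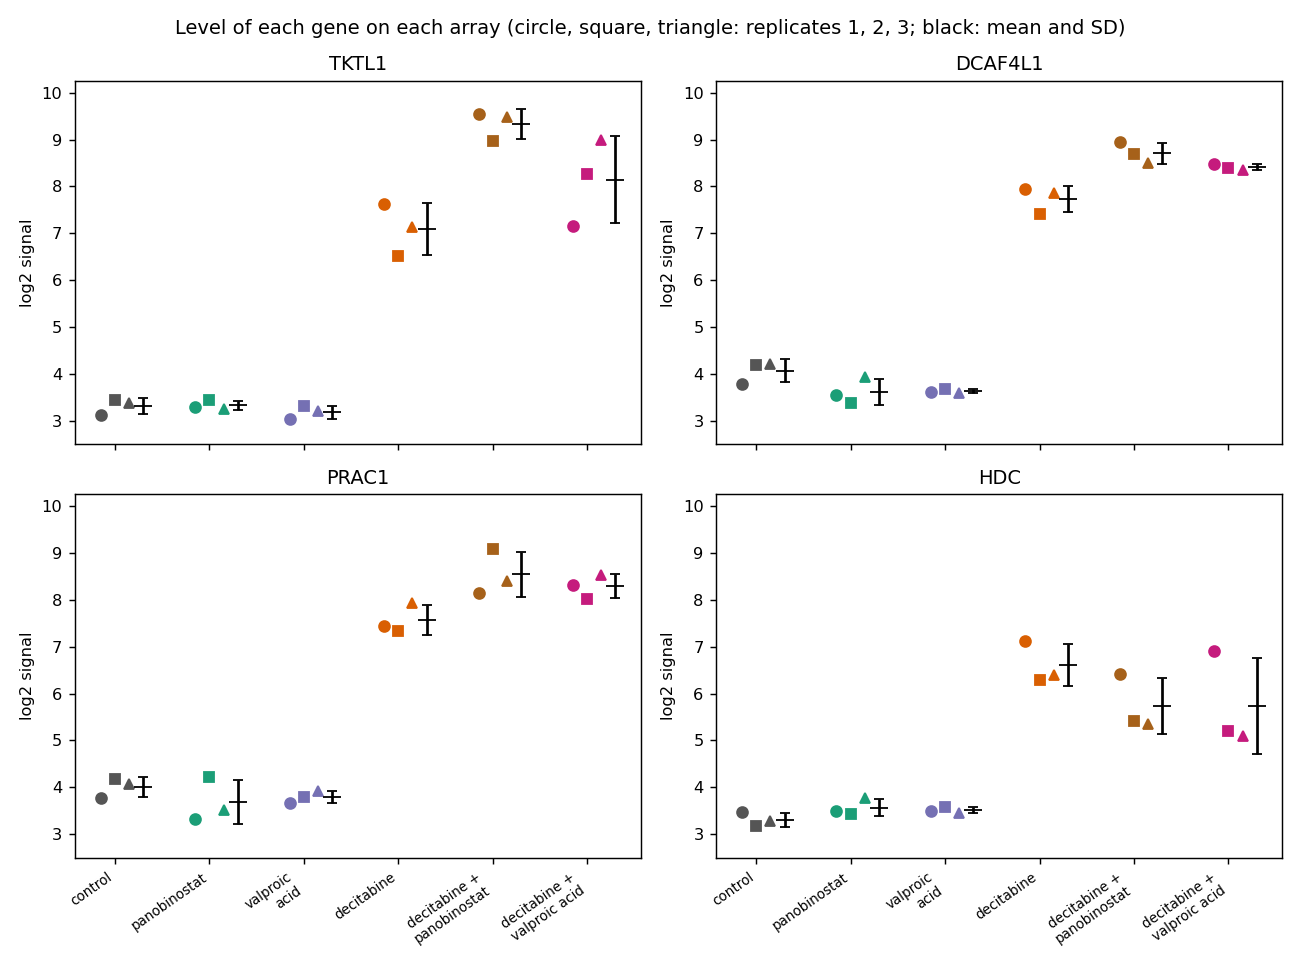
Log2 level of TKTL1, DCAF4L1, PRAC1 and HDC (vertical axis, deposited log2 signal) in the 6 treatment groups (horizontal axis), with 1 point per array and a bar at the mean with its SD, n = 3. Every array with decitabine, alone or in combination, lies above every array without it for each of the 4 genes, and the combinations lie highest for TKTL1, DCAF4L1 and PRAC1 but not for HDC.

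TKTL1 encodes transketolase-like protein 1, a relative of transketolase, the enzyme of the non-oxidative pentose phosphate pathway, and is known for expression in testis and in some tumours. Its log2 level was 3.13, 3.45 and 3.37 in the control arrays and 7.62, 6.52 and 7.14 with decitabine. Panobinostat alone gave 3.30, 3.44 and 3.26, and valproic acid alone gave 3.03, 3.31 and 3.20. The arrays of the inhibitors alone lay among the controls or just below them, and those with decitabine lay far above. Decitabine plus panobinostat gave 9.56, 8.96 and 9.49, and decitabine plus valproic acid gave 7.15, 8.28 and 8.99. All 3 arrays with panobinostat added were above all 3 with decitabine alone, whereas those with valproic acid added overlapped them.

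As a description of the choice, TKTL1 with decitabine was 3.78 above control (SE 0.34), or 13.7-fold, which was rank 2 of all genes by rise. With decitabine plus panobinostat it was 6.02 above control, or 64.9-fold, and with decitabine plus valproic acid 4.82 above, or 28.3-fold. These 3 comparisons share the control arrays. Against the matching inhibitor alone it was 6.01 higher for panobinostat and 4.96 higher for valproic acid. Without replicate 1 of decitabine plus valproic acid, the values for that combination were 5.32 against control and 5.46 against valproic acid.

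Panobinostat added to decitabine raised TKTL1 by a further 2.24 on the log2 scale, or 4.74-fold (SE 0.34, 95% interval 1.52 to 2.97; limma, adjusted p = 0.000333). Valproic acid added to decitabine gave a difference of 1.05 (95% interval 0.33 to 1.77; limma, adjusted p = 0.0837), which did not pass the threshold. Without replicate 1 of decitabine plus valproic acid this difference was 1.54 (limma, adjusted p = 0.00271), and without replicate 3 it was 0.62 (limma, adjusted p = 0.347). The level with panobinostat in the combination was 1.20 above that with valproic acid in it (95% interval 0.47 to 1.92; limma, adjusted p = 0.13). It was 0.70 without replicate 1 of decitabine plus valproic acid (limma, adjusted p = 0.357) and 1.62 without replicate 3 (limma, adjusted p = 0.025). Given alone, neither inhibitor moved TKTL1 past the threshold: the difference from control was 0.01 with panobinostat (limma, adjusted p = 0.99) and -0.14 with valproic acid (limma, adjusted p = 0.892).

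DCAF4L1 is a relative of DCAF4, a WD repeat protein of the family of substrate receptors that bind the DDB1-CUL4 ubiquitin ligase. Its log2 level was 3.78, 4.20 and 4.22 in control and 7.94, 7.42 and 7.86 with decitabine. It was 3.55, 3.38 and 3.93 with panobinostat and 3.61, 3.68 and 3.59 with valproic acid. With the inhibitors alone, 2 of 3 panobinostat arrays and all 3 valproic acid arrays were below all 3 controls; the valproic acid arrays did not overlap the controls, as was so for 12% of all genes in that direction. Decitabine plus panobinostat gave 8.95, 8.68 and 8.50, and decitabine plus valproic acid gave 8.47, 8.40 and 8.35. The order of the 6 groups had no overlap at its upper end: every array with panobinostat in the combination was above every array with valproic acid in it, and those were above every array with decitabine alone.

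DCAF4L1 was 3.67 above control with decitabine (SE 0.17), or 12.7-fold, at rank 5 of all genes by rise. The combinations were 4.65 above control with panobinostat, or 25-fold, and 4.34 above with valproic acid, or 20.3-fold. Against the inhibitor alone the differences were 5.09 and 4.78. Panobinostat added to decitabine raised DCAF4L1 by 0.98, or 1.97-fold (95% interval 0.62 to 1.33; limma, adjusted p = 0.000917). Valproic acid added to decitabine raised it by 0.67, or 1.59-fold (95% interval 0.32 to 1.03; limma, adjusted p = 0.0266). The second call was lost when only the arrays compared were fitted (limma, adjusted p = 0.0822), with a trended and robust prior (0.0558) and without decitabine replicate 2 (0.114) or replicate 3 (0.052) or any 1 array of the combination (0.0543, 0.0795 and 0.0705).

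The combinations differed from each other by 0.30 in DCAF4L1, panobinostat higher (limma, adjusted p = 0.522), although their arrays did not overlap, as was so for 6.97% of all genes in that direction. The difference from control was -0.45 with panobinostat alone (95% interval -0.80 to -0.09; limma, adjusted p = 0.132) and -0.44 with valproic acid alone (limma, adjusted p = 0.141). The inhibitors alone differed from each other by -0.01 (limma, adjusted p = 0.998). DCAF4L1 had the smallest residual SD of the 4 genes, 0.21, against 0.47 for TKTL1, 0.34 for PRAC1 and 0.52 for HDC and a median of 0.19 over all genes.

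PRAC1 encodes a small nuclear protein named for its expression in prostate, rectum and colon, and its gene lies in the HOXB cluster between HOXB13 and HOXB9. Its log2 level was 3.78, 4.19 and 4.06 in control and 7.45, 7.33 and 7.94 with decitabine. It was 3.33, 4.23 and 3.52 with panobinostat and 3.67, 3.78 and 3.92 with valproic acid, which overlapped the controls. Decitabine plus panobinostat gave 8.14, 9.08 and 8.40, and decitabine plus valproic acid gave 8.32, 8.03 and 8.53. Both combinations lay wholly above decitabine alone, and they overlapped each other.

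PRAC1 was 3.56 above control with decitabine (SE 0.25), or 11.8-fold, at rank 8 by rise. It was 4.53 above control with decitabine plus panobinostat, or 23.1-fold, and 4.28 above with decitabine plus valproic acid, or 19.4-fold. Against the inhibitor alone the differences were 4.85 and 4.50. Panobinostat added to decitabine raised PRAC1 by 0.97, or 1.96-fold (95% interval 0.44 to 1.50; limma, adjusted p = 0.0148). That call was lost when only the arrays compared were fitted (limma, adjusted p = 0.0526), without decitabine replicate 1 (0.0526) or replicate 2 (0.0646), and without replicate 2 of the combination, where the difference was 0.70 (0.0767). Valproic acid added to decitabine gave 0.72 (95% interval 0.18 to 1.25; limma, adjusted p = 0.108), with no overlap of the arrays.

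The combinations differed by 0.25 in PRAC1 (limma, adjusted p = 0.786). The differences from control were -0.32 with panobinostat alone (limma, adjusted p = 0.567) and -0.22 with valproic acid alone (limma, adjusted p = 0.725). The inhibitors alone differed from each other by -0.10 (limma, adjusted p = 0.951).

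HDC encodes histidine decarboxylase, which makes histamine from histidine and is known from mast cells, basophils and the enterochromaffin-like cells of the stomach. Its log2 level was 3.46, 3.16 and 3.29 in control and 7.12, 6.30 and 6.40 with decitabine. It was 3.49, 3.43 and 3.76 with panobinostat and 3.48, 3.59 and 3.46 with valproic acid, at or above the upper part of the control range. Decitabine plus panobinostat gave 6.42, 5.41 and 5.36, and decitabine plus valproic acid gave 6.91, 5.20 and 5.09. In contrast to the other 3 genes the mean of each combination, 5.73 in both, lay below the mean of 6.61 with decitabine alone, with overlapping arrays. Within each combination 1 array, replicate 1, was at least 1 log2 unit above the other two.

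HDC was 3.30 above control with decitabine (SE 0.38), or 9.86-fold, at rank 12 by rise. The combinations were 2.42 above control with panobinostat, or 5.36-fold, at rank 117, and 2.43 above with valproic acid, or 5.38-fold, at rank 74. Against the inhibitor alone the differences were 2.16 and 2.22. Without replicate 1 of decitabine plus valproic acid, that combination was 1.84 above control and 1.64 above valproic acid. Panobinostat added to decitabine gave a difference of -0.88 (95% interval -1.68 to -0.08; limma, adjusted p = 0.143), and valproic acid added to it gave -0.87 (95% interval -1.68 to -0.07; limma, adjusted p = 0.207). Without replicate 1 of decitabine plus valproic acid the second difference was -1.46 (limma, adjusted p = 0.00419), and without replicate 3 it was -0.55 (limma, adjusted p = 0.575).

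The combinations differed by -0.01 in HDC (limma, adjusted p = 0.998), and without replicate 1 of decitabine plus valproic acid by 0.58 (limma, adjusted p = 0.498). The differences from control were 0.26 with panobinostat alone (limma, adjusted p = 0.804) and 0.20 with valproic acid alone (limma, adjusted p = 0.848). The inhibitors alone differed by 0.05 (limma, adjusted p = 0.989). In RNA from whole cultures, a change in how many cells carry a transcript and a change in its amount per cell cannot be told apart, for these 4 genes and for those below.

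**Figure D2:**
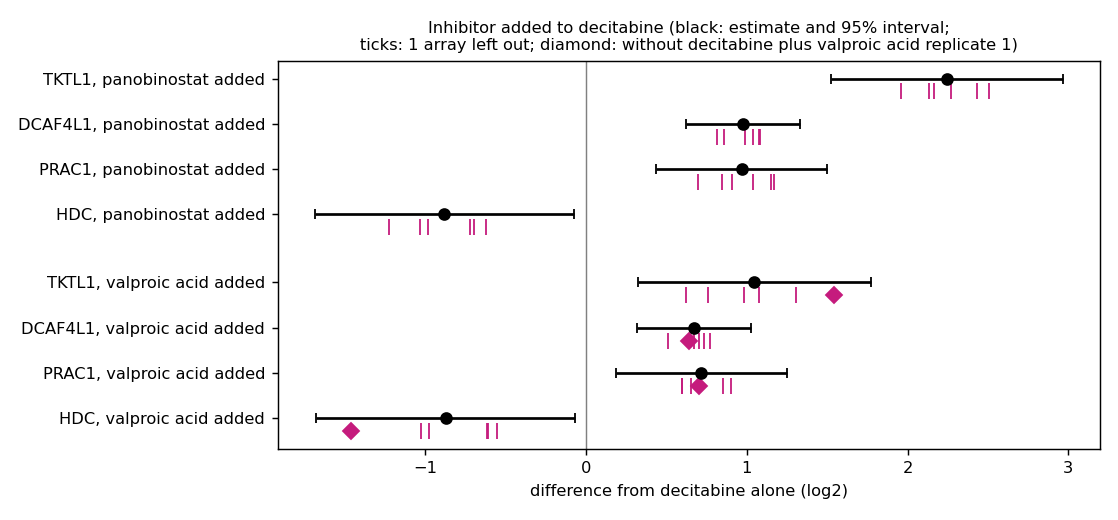
Log2 difference from decitabine alone (with its 95% interval from limma, n = 3 arrays per group) when panobinostat or valproic acid was added, for each of the 4 genes; ticks below each estimate are the values with 1 array left out, and diamonds are those without replicate 1 of decitabine plus valproic acid. TKTL1, DCAF4L1 and PRAC1 lie above 0 with both inhibitors and HDC lies below it, with TKTL1 and panobinostat the largest at 2.24. The intervals are not adjusted for the number of genes tested. By adjusted p, 3 of the 4 were called with panobinostat added and 1 of the 4 with valproic acid added, and HDC with neither.

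Across the 4 genes, 24 tests were made, 6 for each gene. Added to decitabine, panobinostat raised 3 of the 4, where 7.66% of all genes were called higher and 15.6% in either direction. The PRAC1 call among these was lost in the settings named above for that gene. Added to decitabine, valproic acid raised 1 of the 4, where 3.57% of all genes were called higher and 6.13% in either direction. That call, of DCAF4L1, was lost in the settings named above, and limma with a trended and robust prior called 0 of 4 there. When replicate 1 of decitabine plus valproic acid was left out, TKTL1 was called higher and HDC lower in its place. Both of these comparisons share the decitabine arrays with the contrast that chose the genes, which were high there. By rise against control, with panobinostat and then valproic acid in the combination, TKTL1 held ranks 1 and 2 and DCAF4L1 ranks 5 and 6. PRAC1 held rank 7 in both, and HDC ranks 117 and 74. The combination arrays may therefore have had a part in the choice as well, so these calls are not independent of it. The arrays with panobinostat added were wholly above decitabine alone for 3 of 4 genes (14.2% of all genes) and those with valproic acid added for 2 of 4 (11.2% of all genes).

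Neither inhibitor alone gave a call by limma among the 4 genes. With panobinostat 0 of 4 were called (7.39% of all genes were), and 1 of 4 had an unadjusted p under 0.05. With valproic acid 0 of 4 were called (7.47% of all genes), again with 1 of 4 at an unadjusted p under 0.05; in both cases it was DCAF4L1. Between the inhibitors alone 0 of 4 were called and 0 of 4 had an unadjusted p under 0.05 (0.121% of all genes were called). Between the combinations 0 of 4 were called, with 1 of 4, TKTL1, at an unadjusted p under 0.05 (0.652% of all genes were called). Limma with a trended and robust prior also called 0 of 4 in each of these 4 comparisons.

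The arrays with and without decitabine did not overlap for any of the 4 genes. This held for decitabine against control, where 11.5% of all genes had every treated array above every control, and for the combinations with panobinostat (16.9%) and with valproic acid (15.4%) against control. It held as well for each combination against its inhibitor, where the shares of all genes were 12.5% for panobinostat and 8.9% for valproic acid. Because the genes were chosen for this rise, nothing further is read from these counts.

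**Figure D3:**
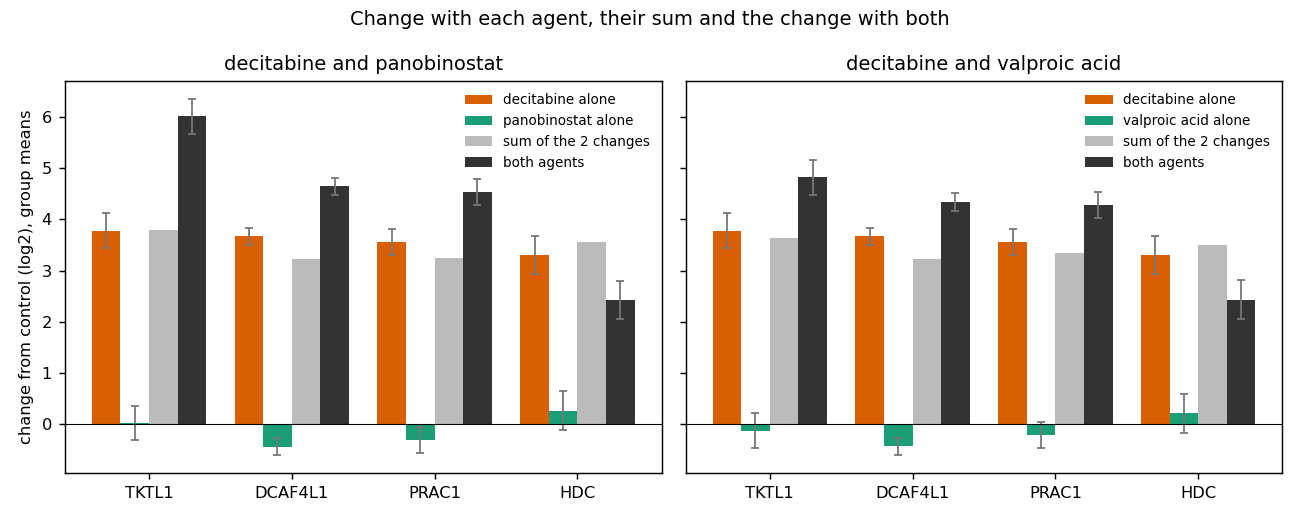
Log2 change from control with decitabine, with the inhibitor, the sum of these changes, and the measured change with both agents, for panobinostat and valproic acid; error bars are the SE from limma, n = 3, and the sum has none drawn. The change with both exceeds the sum for TKTL1, DCAF4L1 and PRAC1 and is below it for HDC.

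The log2 change with both agents was set beside the added changes of the single agents, with no test, since it contains the contrast that chose the genes. For TKTL1 with panobinostat the sum was 3.79 and the change with both was 6.02, an excess of 2.23 (SE 0.48). For DCAF4L1 the sum was 3.22 and the change 4.65, an excess of 1.42 (SE 0.24). For PRAC1 they were 3.24 and 4.53, an excess of 1.29 (SE 0.35). These 3 genes had more than the sum, whereas the HDC sum was 3.56 and its change with both was 2.42, a shortfall with a difference of -1.14 (SE 0.54). With valproic acid the differences were 1.19 (SE 0.48) for TKTL1, 1.11 (SE 0.24) for DCAF4L1 and 0.94 (SE 0.35) for PRAC1. For HDC the difference was -1.08 (SE 0.54). Without replicate 1 of decitabine plus valproic acid, it was 1.68 for TKTL1 and -1.66 for HDC.

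The closest relatives of the 4 genes were described in the same way. TKT, transketolase itself, had a mean log2 level of 10.85 (SD 0.08, n = 3) in control, 10.59 with decitabine, 10.34 with decitabine plus valproic acid and 10.20 with decitabine plus panobinostat. It fell by 0.65 with decitabine plus panobinostat (SE 0.13; limma, adjusted p = 0.00109) and by 0.51 with decitabine plus valproic acid (limma, adjusted p = 0.00953) against control. It was also called lower with panobinostat alone, with a difference of -0.45 (limma, adjusted p = 0.0369), and when panobinostat was added to decitabine, with -0.39 (limma, adjusted p = 0.0474); the first of these calls was lost in 7 alternative settings and the second in 8. TKTL2, DCAF4, DCAF4L2 and DDC, the last of them the decarboxylase that makes dopamine and serotonin, were called in 0 of 11 comparisons by limma, with an unadjusted p under 0.05 in 0 of them, and their group means stayed within 3.27 to 3.45, 4.48 to 4.91, 3.41 to 3.77 and 3.76 to 4.08. PRAC2, GAD1 and GAD2 were not analysed here.

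The pentose phosphate pathway makes NADPH and ribose 5-phosphate, and 12 of its genes other than TKTL1 were measured. With decitabine 0 of 12 were called by limma (3.96% of all genes were), and 3 of 12 had an unadjusted p under 0.05, all lower. With decitabine plus panobinostat 5 of 12 fell and 0 rose (23.2% of all genes were called; 1 of 12 was higher at an unadjusted p under 0.05), with a median difference of -0.43 against -0.02 over all genes. With decitabine plus valproic acid 3 of 12 fell and 0 rose (17% of all genes were called; 0 were higher at an unadjusted p under 0.05), with a median of -0.40. The largest falls with decitabine plus panobinostat were those of PRPS1, a phosphoribosyl pyrophosphate synthetase, by 0.79 (limma, adjusted p = 0.0105), RPIA, the ribose 5-phosphate isomerase, by 0.75 (limma, adjusted p = 0.000874), and TKT. The PRPS1 call was lost without control replicate 1 or without replicate 1 of the combination, where the highest adjusted p by limma was 0.0628. Without control replicate 1, 3 of 12 fell with decitabine plus panobinostat. In these same arrays TKTL1 stood 6.02 above control.

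The CUL4-DDB1 ubiquitin ligase and its DCAF receptors comprised 24 measured genes other than DCAF4L1. With decitabine 2 of 24 fell and 0 rose (3.96% of all genes were called), with 1 of 24 higher at an unadjusted p under 0.05 by limma. With decitabine plus panobinostat 2 rose and 4 fell (23.2% of all genes were called), and with decitabine plus valproic acid 2 rose and 3 fell (17% of all genes), shares near those over all genes. The largest changes with decitabine plus panobinostat were falls of DCAF12 by 0.96 (limma, adjusted p = 0.000181), of DCAF1 by 0.69 (limma, adjusted p = 0.000325) and of DTL, the receptor that directs turnover of replication licensing factors, by 0.68 (limma, adjusted p = 0.014). Leaving out 1 array at a time moved these counts: with decitabine 1 of 24 fell in place of 2 in each such fit, with decitabine plus panobinostat the number that rose went to 1 without control replicate 2 or replicate 2 of the combination and to 0 without replicate 1 of it, and with decitabine plus valproic acid it went to 1 or 0 in every such fit. The DTL call was lost without control replicate 1 or without replicate 3 of the combination (highest adjusted p by limma 0.0641).

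HOX genes encode transcription factors that set position along the body axis, and 10 genes of the HOXB cluster around PRAC1 were measured. Their signals were low. With PRAC1 included, the mean log2 level of the 11 genes per array was 3.41 to 3.48 in control. It was 4.47 to 4.57 with decitabine plus panobinostat. In control 0 of the 11 lay above the median of all genes, and 2 did with decitabine plus panobinostat. PRAC1, chosen for its rise, was among these (8.54 against a median of 4.70). The mean and the count of the 11 therefore rose in part through PRAC1. With decitabine, where 3.96% of all genes were called, 1 of 10 rose, HOXB2, by 1.91 (limma, adjusted p = 0.0162), a call lost without control replicate 2 or 3 and without decitabine replicate 1 or 2 (highest adjusted p by limma 0.07), and 5 of 10 were higher at an unadjusted p under 0.05. With decitabine plus panobinostat 6 of 10 rose and 0 fell (0 at an unadjusted p under 0.05; 23.2% of all genes were called), with a median difference of 0.64 against -0.02 over all genes; leaving out 1 array at a time gave 4 to 6. The 3 largest were HOXB3 by 2.02 (SE 0.27; limma, adjusted p = 4.17e-05), HOXB2 by 1.37 (limma, adjusted p = 0.0275) and HOXB13 by 1.19 (SE 0.21; limma, adjusted p = 0.000499). The HOXB2 call was lost without any 1 of the 3 controls and without replicate 1 or 3 of the combination (highest adjusted p by limma 0.091).

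With decitabine plus valproic acid 4 of 10 HOXB genes rose and 0 fell (0 at an unadjusted p under 0.05; 17% of all genes were called), with a median difference of 0.48. HOXB13 rose by 0.91 (limma, adjusted p = 0.00604). With either inhibitor alone 0 of 10 HOXB genes were called by limma, and 0 had an unadjusted p under 0.05. Over all genes, 7.39% were called with panobinostat and 7.47% with valproic acid. The genes on either side of PRAC1, HOXB13 and HOXB9, had differences of 0.57 (limma, adjusted p = 0.167) and 0.74 (limma, adjusted p = 0.0688) with decitabine, against 3.56 for PRAC1. HOXB9 rose by 0.86 with decitabine plus panobinostat (limma, adjusted p = 0.00722). HOXB8, next along the cluster, had a difference of -0.05 there (limma, adjusted p = 0.835).

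**Figure D4:**
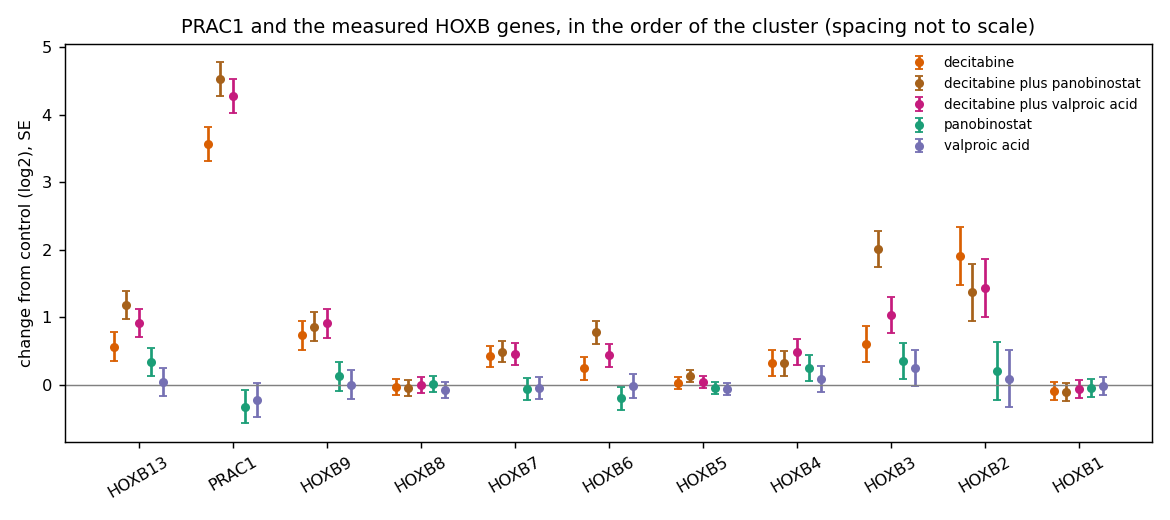
Log2 difference from control of PRAC1 and the measured HOXB genes, in their order along chromosome 17 and with spacing not to scale, for each of the 5 treatments; error bars are the SE from limma, n = 3. PRAC1 stands at 3.56 with decitabine while its neighbours HOXB13 and HOXB9 stand at 0.57 and 0.74.

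Of the genes for histamine breakdown, transport and reception, 8 other than HDC were measured. Over all genes, 3.96% were called with decitabine, 23.2% in the combination with panobinostat and 17% in that with valproic acid, against which the counts of this paragraph stand. With decitabine 0 of 8 were called by limma and 1 of 8 was lower at an unadjusted p under 0.05. With decitabine plus panobinostat 0 of 8 were called, with 2 lower at an unadjusted p under 0.05, and with decitabine plus valproic acid 0 of 8, with 1 lower. Single histamine genes passed the threshold without decitabine replicate 3 (1 lower), without replicate 2 (1 lower) or 3 (1 higher) of decitabine plus panobinostat, and without control replicate 3 against decitabine plus valproic acid (1 lower). Of 5 other decarboxylases that use pyridoxal phosphate, as HDC does, 0 were called with decitabine (0 at an unadjusted p under 0.05), 2 rose and 1 fell with decitabine plus panobinostat, and 1 rose with decitabine plus valproic acid. The 2 that rose with decitabine plus panobinostat became 1 without control replicate 2 or 3 and without replicate 1 or 3 of the combination. SGPL1, the sphingosine 1-phosphate lyase, rose by 1.14 with decitabine plus panobinostat (limma, adjusted p = 0.00125).

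The 3 nearest measured genes on each side of each of the 4 genes, by RefSeq position, were examined in the same way. With decitabine, where 3.96% of all genes were called, 0 of these 24 rose and 1 fell. The one that fell was GALK2 near HDC, by 0.63 (limma, adjusted p = 0.0186), a call lost in 5 alternative settings. An unadjusted p under 0.05 by limma was found for 5 of 24. In the combination with panobinostat 3 of 24 rose and 1 fell (23.2% of all genes were called), and in that with valproic acid 3 rose and 3 fell (17% of all genes). Those that rose with decitabine plus panobinostat were HOXB13 and HOXB9 beside PRAC1 and BEND4 beside DCAF4L1, which rose by 1.20 (limma, adjusted p = 0.00459), and the one that fell was IRAK1 near TKTL1, a kinase of Toll-like receptor signalling, by 1.54 (limma, adjusted p = 5.37e-05). With decitabine alone BEND4 had a difference of -0.13 (limma, adjusted p = 0.886).

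Markers of the tissues in which the 4 genes are known were measured beside them. Over all genes, 3.96% were called with decitabine, 23.2% in the combination with panobinostat and 17% in that with valproic acid. The counts of this paragraph and the next stand against these shares. Of 5 measured mast cell and basophil genes (of 8 listed), 0 were called with decitabine and 0 had an unadjusted p under 0.05 by limma, and the mean log2 level of the list per array ran from 4.12 to 4.21 in control and from 4.30 to 4.50 with decitabine. It ran from 4.10 to 4.63 with decitabine plus panobinostat and from 4.17 to 4.65 with decitabine plus valproic acid. In the combination with panobinostat 1 of 5 rose (23.2% of all genes were called), the mast cell carboxypeptidase CPA3, by 0.93 (limma, adjusted p = 0.0307). An unadjusted p under 0.05 by limma, higher, was found for 2 of 5. The CPA3 call was lost with only the arrays compared, without control replicate 2 or 3 and without replicate 1 of the combination (highest adjusted p by limma 0.133). With decitabine plus valproic acid 0 of 5 were called by limma and 2 of 5 were higher at an unadjusted p under 0.05. Of 3 measured genes of gastric enterochromaffin-like cells (of 4 listed) 0 were called with decitabine, with 2 at an unadjusted p under 0.05 in opposite directions, and the list mean was 3.59 to 3.93 in control and 3.67 to 3.79 with decitabine.

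For prostate, KLK2 and KLK3 were the 2 measured of 6 listed genes; 0 were called with decitabine and 0 had an unadjusted p under 0.05 by limma, with list means of 3.51 to 3.98 in control and 3.62 to 3.77 with decitabine. For colon epithelium 5 of 7 listed genes were measured, 0 were called with decitabine and 1 was higher at an unadjusted p under 0.05, with list means of 3.69 to 3.95 in control and 3.79 to 3.93 with decitabine. Of the 7 testis germ cell genes, all measured, 2 rose with decitabine (3.96% of all genes were called). DAZL, a germ cell RNA-binding protein, rose by 2.25 (limma, adjusted p = 6.86e-06), and SYCP3, of the meiotic chromosome axis, by 0.64 (limma, adjusted p = 0.0372), a call lost in 7 alternative settings, among them the removal of any 1 of the 6 arrays. The germ cell list mean was 3.75 to 3.79 in control and 4.14 to 4.25 with decitabine. The part of these lists in the rise of the 4 genes was not tested.

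As markers of other blood cells, PAX5 was the 1 measured of 5 B cell genes and was not called with decitabine (unadjusted p under 0.05, lower), and CD2 was the 1 measured of 5 T cell genes. CD2 rose by 0.94 with decitabine (limma, adjusted p = 0.0244) and by more in the combinations, 2.04 with valproic acid and 1.88 with panobinostat; the first call was lost in 4 alternative settings (highest adjusted p by limma 0.117). Of the 9 myeloid genes 5 rose with decitabine (3.96% of all genes were called), 3 rose and 2 fell with decitabine plus panobinostat (23.2%), and 4 rose and 1 fell with decitabine plus valproic acid (17%). Their members differed: LYZ rose by 1.67 with decitabine and by 2.24 with decitabine plus panobinostat, whereas MPO had a difference of 0.03 with decitabine and fell by 0.93 with decitabine plus panobinostat (limma, adjusted p = 0.000113). Over the list, the mean level per array was 6.86 to 7.02 in control and 7.88 to 8.10 with decitabine. It was 7.18 to 7.39 with decitabine plus panobinostat and 7.21 to 7.75 with decitabine plus valproic acid. Its part in the HDC values was not tested.

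**Figure D5:**
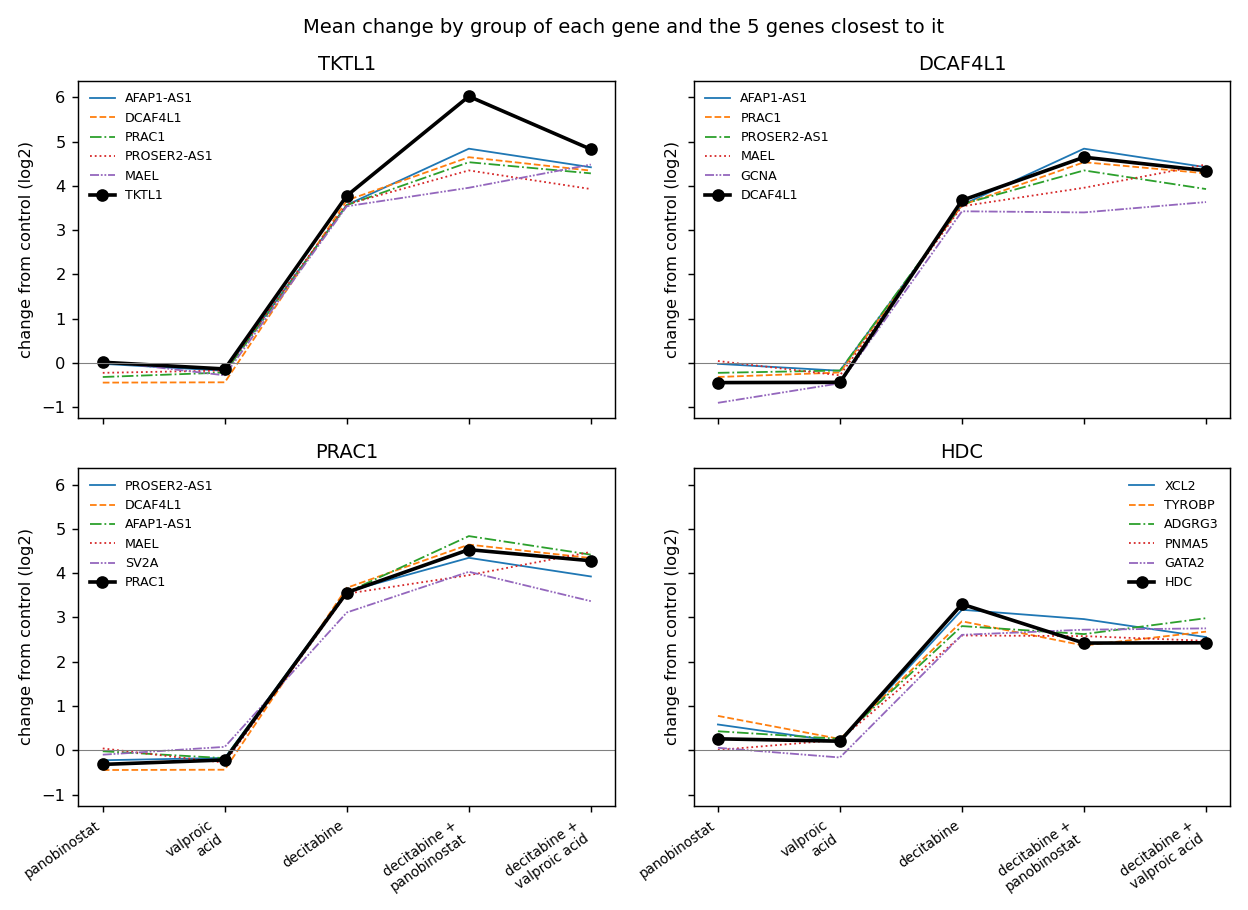
Mean log2 change from control in the 5 treatment groups for each of the 4 genes and for the 5 genes whose changes were nearest to it, by root mean square difference over the 15 treated arrays. The 5 profiles nearest to HDC stand between 2.37 and 3.17 above control in each of the 3 groups with decitabine.

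To describe which genes had a like pattern, the change of each gene from its control mean was compared array by array over the 15 treated arrays, and the root mean square difference was taken. DCAF4L1 and PRAC1 were 0.39 apart. TKTL1 was 0.82 from DCAF4L1 and 0.89 from PRAC1, and HDC was 2.09, 1.45 and 1.44 from TKTL1, DCAF4L1 and PRAC1. The median distance of all genes was 3.88 from TKTL1, 3.32 from DCAF4L1, 3.25 from PRAC1 and 2.20 from HDC. A small distance between genes chosen for a large rise with decitabine follows in part from that choice, so nothing is read from the distances against the median.

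AFAP1-AS1, an antisense RNA, was nearest to TKTL1 (0.70) and to DCAF4L1 (0.30), and PROSER2-AS1 was nearest to PRAC1 (0.38). AFAP1-AS1, PROSER2-AS1 and MAEL, which encodes maelstrom, a protein of the germ cell pathway that silences transposons, were among the 5 nearest of TKTL1, DCAF4L1 and PRAC1 alike. The remaining one for DCAF4L1 was GCNA (0.70), a germ cell nuclear protein, and for PRAC1 it was SV2A (0.68), a synaptic vesicle protein. The 5 nearest of HDC were XCL2 (0.48), a chemokine, TYROBP (0.53), an adaptor of activating receptors in myeloid and natural killer cells, ADGRG3 (0.55), an adhesion G protein-coupled receptor, PNMA5 (0.58) and GATA2 (0.59), a transcription factor of blood progenitors and mast cells. None of the 5 was among the nearest of the other 3 genes. The likeness is a description over shared arrays and carries no test.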

How the data were processed

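Values are the deposited log2 signals of 48226 probe sets, which the authors made with RMA, per the submitters' processing notes; its version is not given in the sources used here. The array is the Affymetrix Human Gene 2.0 ST. Probe sets were named from the platform annotation, with symbols updated by gene identifier to RefSeq: 16098 had 1 symbol, 0 several and 32128 none. For the 779 genes with several probe sets the one with the highest mean was used. Of the 4 genes each has 1 probe set.

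The test was limma 3.58.1 (R 4.3.3), with 1 mean per group over all 18 arrays (12 residual degrees of freedom) and Benjamini-Hochberg adjustment over all 14884 genes of a comparison; an adjusted p under 0.05 is a call. The code was tested on simulated data. The members and the gene lists were chosen with earlier results of these data known. The 4 genes were chosen for their rise with decitabine, so their contrasts with and without decitabine, and the interactions, carry no p. Other genes named are relatives of the 4 genes, up to 3 called members of a list by size of change with decitabine plus panobinostat, the 3 neighbours on each side and the 5 genes of nearest pattern. CD2, DAZL, SYCP3, MPO and LYZ were picked from the marker lists after their values were seen. Alternatives were a replicate block, a fit of only the arrays compared, all probe sets, a low-level filter, median centring, a trended prior and leaving out each array.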

Additional observations from a re-analysis of the deposited data

Results flagged for a closer look

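DCAF4L1 stood below control in every array with valproic acid alone, and above decitabine alone in every array with valproic acid added to it. The first difference did not pass the threshold (-0.44; limma, adjusted p = 0.141), and 12% of all genes had no overlap in that direction. The second passed (0.67; limma, adjusted p = 0.0266) but lost its call in 7 alternative settings, and 11.2% of all genes had no overlap in that direction. The change with both agents was 1.11 above the added changes of the single agents on the log2 scale; the difference between the effects was not tested, since it contains the contrast for which DCAF4L1 was chosen. Differences of opposite sign, with overlapping arrays for the inhibitor alone, also stood for DCAF4L1 with panobinostat (-0.45 and 0.98) and for PRAC1 with panobinostat (-0.32 and 0.97) and valproic acid (-0.22 and 0.72). Those with the inhibitor alone did not pass the threshold (limma, adjusted p = 0.132, 0.567 and 0.725). Nor did PRAC1 with valproic acid added (limma, adjusted p = 0.108). The signs of the differences that did not pass are therefore not secure. With panobinostat added to decitabine, DCAF4L1 kept its call in every setting and ran from 0.82 to 1.08 with 1 array left out. The PRAC1 call with panobinostat added was lost in the settings named above for that gene.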

How the results depend on the processing

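No called difference of the 4 genes changed direction, and the replicate block, all 48226 probe sets and median centring changed no call among their 24 tests. The low-level filter changed none either, but the 4 genes pass it through the decitabine arrays in which they are high, so it says nothing of them. Fitting only the arrays compared ended the calls of DCAF4L1 with valproic acid added to decitabine (0.67, adjusted p by limma 0.0822) and of PRAC1 with panobinostat added (0.97, 0.0526), and the trended and robust prior ended the former (0.67, 0.0558). Leaving out 1 array at a time, these differences ran from 0.51 to 0.77 and from 0.70 to 1.17. TKTL1 ran from 0.62 to 1.54 with valproic acid added to decitabine and from 0.70 to 1.62 between the combinations, and HDC from -1.46 to -0.55 with valproic acid added; each passed the threshold in 1 such fit. With decitabine plus valproic acid, TKTL1 ran from 4.40 to 5.32 against control, from 4.54 to 5.46 against valproic acid and from 0.76 to 1.68 beyond the sum. HDC ran from 1.84 to 2.75, from 1.64 to 2.54 and from -1.66 to -0.76.

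The replicate numbers were not taken as pairs in the main fit. Deviations of same-numbered arrays from their group means correlated between -0.108 and 0.104. However, 10 of 18 arrays correlated best with an array of their own number, among the arrays of the other groups. Each group holds all 3 numbers, so some such matches arise with no shared effect. How many was not worked out, and these values do not exclude an effect shared by replicate number. HDC was highest in replicate 1 in control, decitabine and both combinations, though not with either inhibitor alone. With the replicate as a block the adjusted p by limma for HDC was 0.0678 with panobinostat added to decitabine and 0.114 with valproic acid added, and no call among the 4 genes changed.

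Over all genes, calls moved by over 1.5 times in these settings. Without 1 array, decitabine against control had 361 to 468 calls (590 with all arrays), panobinostat 659 to 854 (1100), valproic acid 508 to 1001 (1112), valproic acid added to decitabine 360 to 1227 (913), the inhibitors against each other 4 to 15 (18) and the combinations against each other 26 to 109 (97). With only the arrays compared, there were 177 with valproic acid added to decitabine, 0 between the inhibitors by limma (1391 at an unadjusted p under 0.05) and 2 between the combinations. Testing all 48226 probe sets gave 1358, 2210 and 2107 calls for decitabine, panobinostat and valproic acid, 7015 and 5099 for the combinations with panobinostat and valproic acid against control, 4279 and 1647 for them against decitabine, 54 between the inhibitors and 195 between the combinations. These counts come from a larger set than the 14884 genes of the main fit, so they do not show a larger share called. The low-level filter removed every HOXB gene.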
